A study of Mus musculus with 6 samples.

Results

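The genes described here are 38 genes of the endoplasmic reticulum (ER) that fold, modify, import or remove secretory proteins, or that sense and answer their misfolding in the unfolded protein response (UPR). They were listed by symbol, out of 55367 gene symbols, with earlier results of these data known. They are read by role: 11 chaperones and co-chaperones, 12 folding enzymes, 8 genes of the degradation machinery, 3 genes of stress sensing (Ern1, Atf6 and the factor Xbp1), and 4 genes of the translocation channel. They were measured by RNA sequencing in fibroblastic reticular cells (FRCs) of a mouse cell line. FRCs form the scaffold of lymph nodes and secrete its matrix.

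All libraries came from that cell line, with no genetic change named in the labels, after 96 h in conditioned medium with serum. The first group received medium conditioned by 4T1 cells, the second medium conditioned by 67NR cells, and the control group medium conditioned by FRCs themselves. 4T1 and 67NR are mouse mammary carcinoma lines of common origin, 4T1 known as metastatic and 67NR as non-metastatic. The series title places the study in tumour-draining lymph nodes in breast cancer. Each medium had 2 libraries, 6 in all, and nothing in the labels says that the 2 came from separate cultures, so p-values cover no more than the spread between the 2 libraries, which may be technical.

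Secretory proteins enter the ER through a channel, are folded by chaperones and by enzymes that form disulfide bonds, and are sent to the cytosol for degradation if they fail. Sensors in the ER membrane, IRE1 (Ern1), PERK (Eif2ak3) and ATF6 (Atf6), answer a load of unfolded protein: IRE1 splices the Xbp1 message, ATF6 is cut to free a transcription factor, and PERK slows translation while favouring Atf4. The factors made by IRE1 and ATF6 raise chaperone genes, while the Atf4 branch raises genes of amino acid supply and stress. Matrix-secreting fibroblasts are known for high levels of these genes, with collagen among the main clients. Gene counts cannot tell spliced from unspliced Xbp1 message.

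The best known control element of these genes is the ER stress element (ERSE), which is read by ATF6 and XBP1 with NF-Y and consists of CCAAT, 9 bases and CCACG. A related form, ERSE-II, is ATTGG, 1 base and CCACG. Both strands were searched in 300-base RefSeq promoter windows (250 bases before the start site, 50 after, GRCm38.p6), and 32 of the 38 genes had a window. The ERSE letters stood in the windows of 10 of these 32 genes (Calr, Canx, Creld2, Derl3, Dnajc3, Ero1lb, Hsp90b1, Hspa5, Pdia6 and Syvn1), against 37 of 27025 genes, or 0.137%, over all promoters. The ERSE-II letters stood in 2, Herpud1 and Dnajb11, against 0.044% of all genes. The stretches below are those of ERSE genes whose levels the results turn on and, as an example of ERSE-II, that of Herpud1, read 5′ to 3′ on the strand of the gene, with the paired letters of the element in capitals. Where the element lies on the other strand, CGTGG comes before ATTGG. Hsp90b1 holds another ERSE match, 107 bases before the start site on the other strand, which is not printed. The Hspa5 stretch lies in an annotated exon of Hspa5 and is printed with shorter flanks. These are matches of letters, not measured binding sites.
Hspa5, chr2:34772020-34772048, plus strand: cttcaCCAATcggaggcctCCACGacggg
Hsp90b1, chr10:86705618-86705676, minus strand: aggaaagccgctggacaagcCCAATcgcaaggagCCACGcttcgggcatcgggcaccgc
Calr, chr8:84847055-84847113, minus strand: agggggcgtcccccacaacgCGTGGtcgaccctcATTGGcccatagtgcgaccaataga
Pdia6, chr12:17266471-17266529, plus strand: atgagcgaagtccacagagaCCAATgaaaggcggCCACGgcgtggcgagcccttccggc
Creld2, chr15:88819500-88819558, plus strand: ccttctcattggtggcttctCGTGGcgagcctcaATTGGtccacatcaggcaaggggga
Herpud1, chr8:94386357-94386407, plus strand: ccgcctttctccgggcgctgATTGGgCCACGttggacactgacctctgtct

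Total counts per library ran from 13.6 M to 21.8 M, so that 1 count stood for 0.0459 to 0.0736 CPM (counts per M counts). Across genes, the Pearson correlation of log CPM was at least 0.992 within a medium and at most 0.979 between media. Of the stroma markers, Pdpn, Pdgfra, Pdgfrb, Col1a1 and Vcam1 were present, whereas Thy1, Ccl19, Ccl21a and Cxcl13, which FRCs of lymph nodes are known for, were at 0 in all 6 libraries. Summed over each whole list, markers of mammary epithelium reached 0.218 to 0.811 CPM in 4T1 medium, 1.58 to 1.70 CPM in 67NR medium and 2.01 to 2.39 CPM in control medium, with Epcam at 0 in all. Leukocyte markers summed to 251 to 260 CPM in 4T1 medium, 161 to 163 CPM in 67NR medium and 143 to 151 CPM in control medium, nearly all of it Sdc1, with Adgre1 and Cd3e at 0 in all. Endothelial markers summed to 34.2 to 35.7 CPM in 4T1 medium, 23.6 to 26.6 CPM in 67NR medium and 14.0 to 16.1 CPM in control medium, mostly Emcn, with Prox1 at 0. Mitochondrial genes took 2.11 and 2.37% of the counts in 4T1 medium, 1.96 and 2.28% in 67NR medium and 1.3 and 1.9% in control medium. In a list of RNA quality genes, 6 of the 10 tested were higher in 4T1 than in control medium and none was lower. In 67NR against control medium 7 of the 10 were higher and none was lower. Over all genes, 19.9% were higher in 4T1 than in control medium and 13.0% in 67NR than in control medium. The part of these marker and quality differences in the results was not tested.

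In 4T1 medium most of the ER folding genes fell, while the membrane sensors Ern1 and Atf6, the oxidase Ero1l and the degradation channel gene Derl1 rose. Against control medium 24 of the 37 tested genes were lower, 4 were higher and 9 did not pass (edgeR quasi-likelihood test, adjusted p under 0.05 over all 15055 genes tested). Over all genes, 19.2% were lower and 19.9% higher. The median log2 fold change was -0.29 over the 37 genes and 0.01 over all genes tested. In bulk RNA, fewer cells of a type and less RNA per cell cannot be told apart.

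In 67NR medium the movement was smaller and mostly upward. Against control medium 9 of the 37 genes were higher (Calr, Sdf2l1, Dnajb9, Dnajc3, Pdia4, Creld2, Ppib, Syvn1 and Ern1), 1 was lower (Ero1l) and 27 did not pass, against 13.0% higher and 14.6% lower over all genes. The median log2 fold change was 0.13 over the 37 genes and 0.00 over all genes. The count of 9 depended on the libraries fitted: it was 17 without 4T1 replicate 1, 18 without 4T1 replicate 2 and 19 with the 67NR and control libraries alone, while the fall of Ero1l was lost without 67NR replicate 2 (adjusted p = 0.0517).

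The direct comparison of the tumour media gave the widest separation. In 4T1 against 67NR medium 29 of the 37 genes were lower, 4 were higher (Ero1l, Ern1, Atf6 and Derl1) and 4 did not pass (Ero1lb, Dnajc10, Herpud1 and Derl2). Over all genes, 19.9% were lower and 23.5% higher, and the median log2 fold change was -0.38 over the 37 genes and 0.03 over all genes. The comparisons with control medium share its 2 libraries, so their values are set side by side below and only the direct comparison tests a difference between the tumour media.

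**Figure D1:**
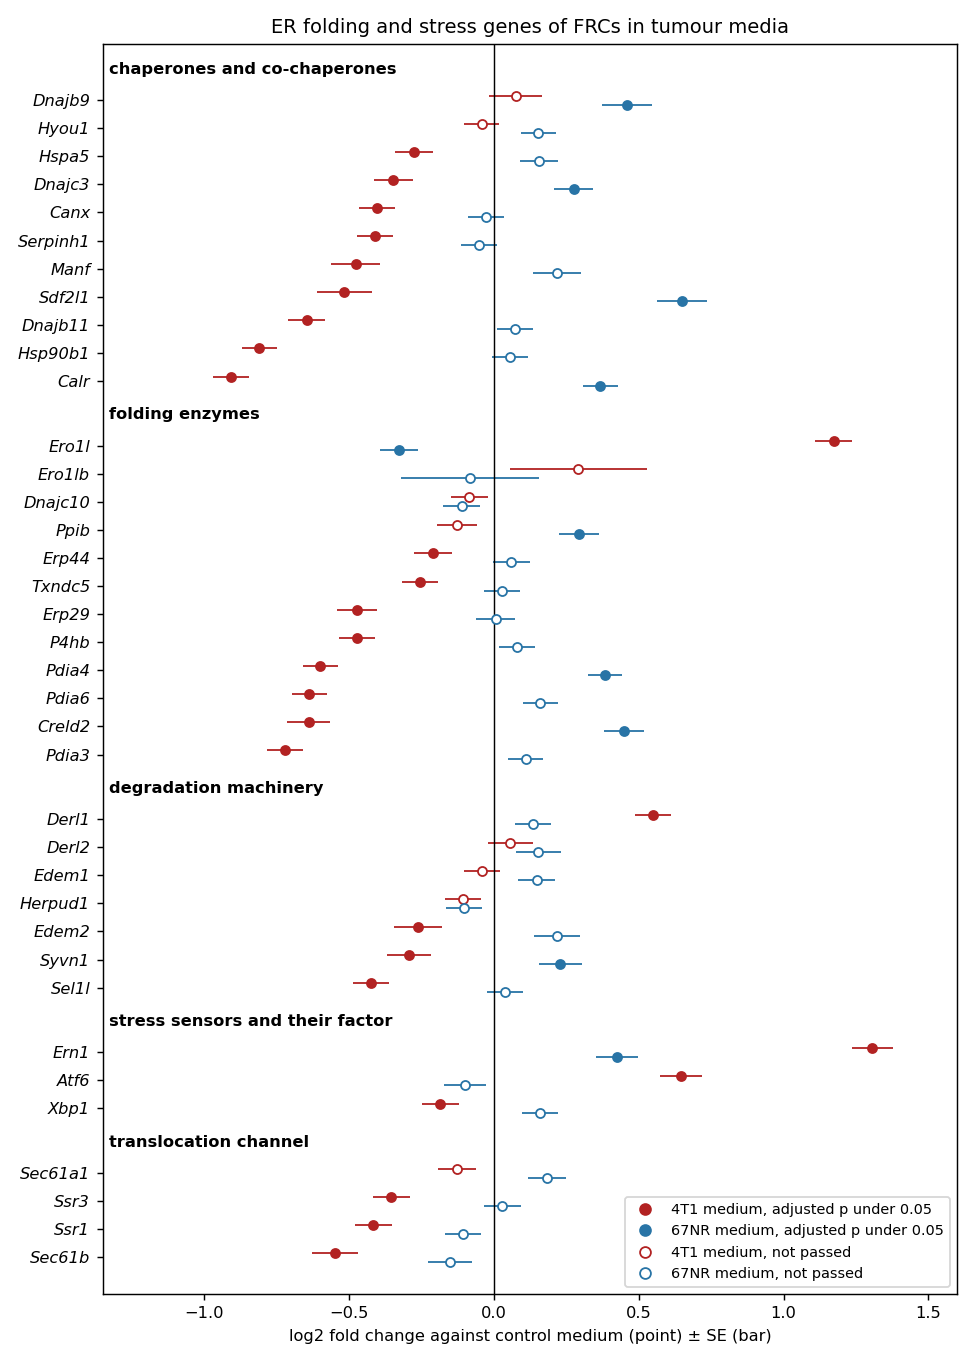
Log2 fold change against control medium (x axis, points) with its standard error (bars) for the 37 tested genes, grouped by role, in 4T1 medium (red, upper point of each pair) and 67NR medium (blue, lower point); filled points passed the test. Ern1 at 1.31 and Ero1l at 1.17 lie farthest to the right in 4T1 medium and Calr at -0.91 farthest to the left.

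The 38 genes together took 1.33 and 1.29% of all counts in 4T1 medium, 1.86 and 1.84% in 67NR medium and 1.73 and 1.73% in control medium. The groups of libraries did not overlap, and 4T1 medium was lowest. Chaperones took 0.721 and 0.693% of counts in 4T1 medium, 1.09 and 1.09% in 67NR medium and 1.00 and 1.00% in control medium. Folding enzymes took 0.372 and 0.368% in 4T1 medium, 0.514 and 0.503% in 67NR medium and 0.481 and 0.474% in control medium. These groups, which hold most of the counts, set the total. The degradation machinery took nearly equal shares, with 0.0909 and 0.0880% in 4T1 medium, 0.0940 and 0.0924% in 67NR medium and 0.0887 and 0.0880% in control medium. The sensors and Xbp1 ran the other way, with 0.0300 and 0.0306% in 4T1 medium, 0.0246 and 0.0242% in 67NR medium and 0.0221 and 0.0222% in control medium. No test was run on these sums.

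**Figure D2:**
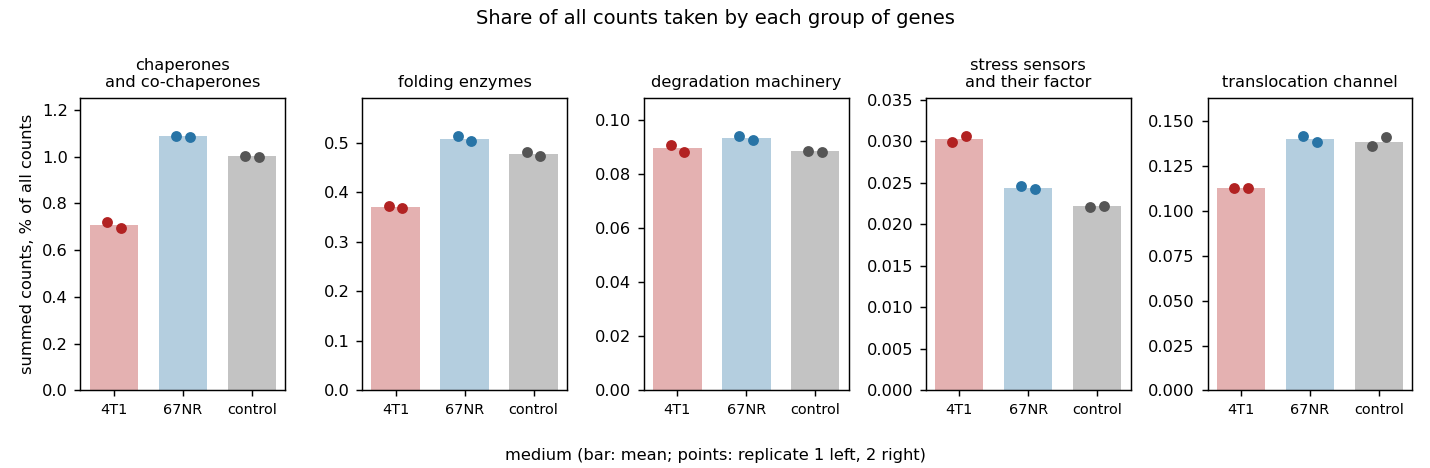
Summed counts of each role group as a percentage of all counts (y axis, from 0) by medium; bars are means of 2 libraries and points the libraries. Chaperones and folding enzymes are lowest in 4T1 medium and the degradation machinery is nearly level. The sum of Ern1, Atf6 and Xbp1 is highest in 4T1 medium, although Xbp1 alone is lowest there.

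Per kilobase of exon (GENCODE M21), the order of the highest genes by mean was the same in all 3 media: Serpinh1, Calr, P4hb, Hspa5, Hsp90b1, Pdia3 and Canx. In 67NR replicate 2, however, Calr stood above Serpinh1 (1033 against 1022 CPM per kilobase). Serpinh1, the collagen chaperone, averaged 810 CPM per kilobase in 4T1 medium, 1041 in 67NR medium and 1078 in control medium. Calr averaged 425 CPM per kilobase in 4T1 medium, 1030 in 67NR medium and 798 in control medium. Ero1l changed place most visibly, at rank 13 of 38 in 4T1 medium, 28 in 67NR medium and 26 in control medium. Derl3 was last in every medium, with 3 and 1 counts in 4T1 medium, 3 and 3 in 67NR medium and 1 and 0 in control medium, and was too low to test.

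Among the chaperones, 9 of 11 fell in 4T1 against control medium and none rose, with Dnajb9 and Hyou1 not passing (median log2 -0.41). Of all genes, 19.2% were lower and 19.9% higher in that comparison. Calr, calreticulin, the calcium-binding lectin that holds glycoproteins for folding (chr8:84841850-84846934, minus strand), had 1224 and 1227 CPM in 4T1 medium, 2956 and 2976 CPM in 67NR medium and 2294 and 2305 CPM in control medium. The 3 media did not overlap, with 4T1 lowest and 67NR highest. In 4T1 medium it was at 53.3% of the control level (log2 fold change -0.91 ± 0.06 SE, adjusted p = 1.02e-07) and at 41.3% of the 67NR level (-1.28 ± 0.06, adjusted p = 3.63e-09), and in 67NR medium it was 1.29-fold above control (0.37 ± 0.06, adjusted p = 0.000604). The pseudogene Calr-ps had 158 counts over all 6 libraries.

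Hsp90b1, also called GRP94, the ER form of HSP90 (chr10:86690209-86705509, minus strand), had 904 and 904 CPM in 4T1 medium, 1627 and 1668 CPM in 67NR medium and 1565 and 1606 CPM in control medium. It fell in 4T1 against control medium (log2 fold change -0.81 ± 0.06, adjusted p = 3.33e-07), and the 67NR and control libraries lay close together (0.06 ± 0.06, adjusted p = 0.543). Hspa5, also called BiP, the main ER chaperone of the HSP70 family and the protein that holds the sensors inactive (chr2:34771970-34777547, plus strand), had 1486 and 1370 CPM in 4T1 medium, 1900 and 1951 CPM in 67NR medium and 1725 and 1731 CPM in control medium. It fell to 82.6% of the control level in 4T1 medium (-0.28 ± 0.07, adjusted p = 0.0047). Its difference between 67NR and control medium did not pass when all 6 libraries were fitted (0.16 ± 0.07, adjusted p = 0.0954) and passed when either 4T1 library was left out (adjusted p = 0.021 and 0.0206).

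The co-chaperones of Hspa5 split. Dnajb11, which hands unfolded protein to Hspa5, fell by 0.65 on the log2 scale in 4T1 against control medium (± 0.06), and Dnajc3, a co-chaperone known also as an inhibitor of PERK, fell by 0.35 (± 0.07). The rise of Dnajc3 in 67NR against control medium (0.28 ± 0.07, adjusted p = 0.00831) was lost without 67NR replicate 2 (adjusted p = 0.106) or control replicate 1 (adjusted p = 0.0966). Dnajb9, a co-chaperone that returns Hspa5 to IRE1, had 35.6 and 34.8 CPM in 4T1 medium, 45.4 and 46.4 CPM in 67NR medium and 30.9 and 36.3 CPM in control medium. Its 4T1 libraries lay between those of control (0.07 ± 0.09, adjusted p = 0.551), and its 67NR libraries were above all others (0.46 ± 0.09 against control, adjusted p = 0.00166). Sdf2l1, a partner of the Hspa5 cycle, had 18.9 and 16.4 CPM in 4T1 medium, 39.7 and 39.2 CPM in 67NR medium and 25.4 and 24.9 CPM in control medium. It had the largest rise of the 37 genes in 67NR against control medium (0.65 ± 0.09, adjusted p = 0.000114), and it fell in 4T1 medium against control (-0.52 ± 0.10) and against 67NR (-1.17 ± 0.09).

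Canx, the membrane-bound relative of Calr, Serpinh1 and Manf, a secreted ER stress factor, fell in 4T1 against control medium by 0.40, 0.41 and 0.48 on the log2 scale. Serpinh1 had 1999 and 1961 CPM in 4T1 medium, 2591 and 2496 CPM in 67NR medium and 2662 and 2606 CPM in control medium. Its 67NR and control libraries differed by little (-0.05 ± 0.06, adjusted p = 0.589). Hyou1 is an ER exchange factor of the HSP70 type. It had 253 and 249 CPM in 4T1 medium, 292 and 283 CPM in 67NR medium and 256 and 261 CPM in control medium. With all 6 libraries fitted, it did not pass against control in either tumour medium. With the 67NR and control libraries alone, it was higher in 67NR medium (log2 0.16, edgeR adjusted p = 0.0169). In 4T1 against 67NR medium 19.9% of all genes were lower. All 11 chaperones were lower in 4T1 than in 67NR medium, the smallest difference being that of Hyou1 (-0.20 ± 0.06, adjusted p = 0.0186), which was lost without 67NR replicate 1 (adjusted p = 0.166) or 2 (adjusted p = 0.0846).

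**Figure D3:**
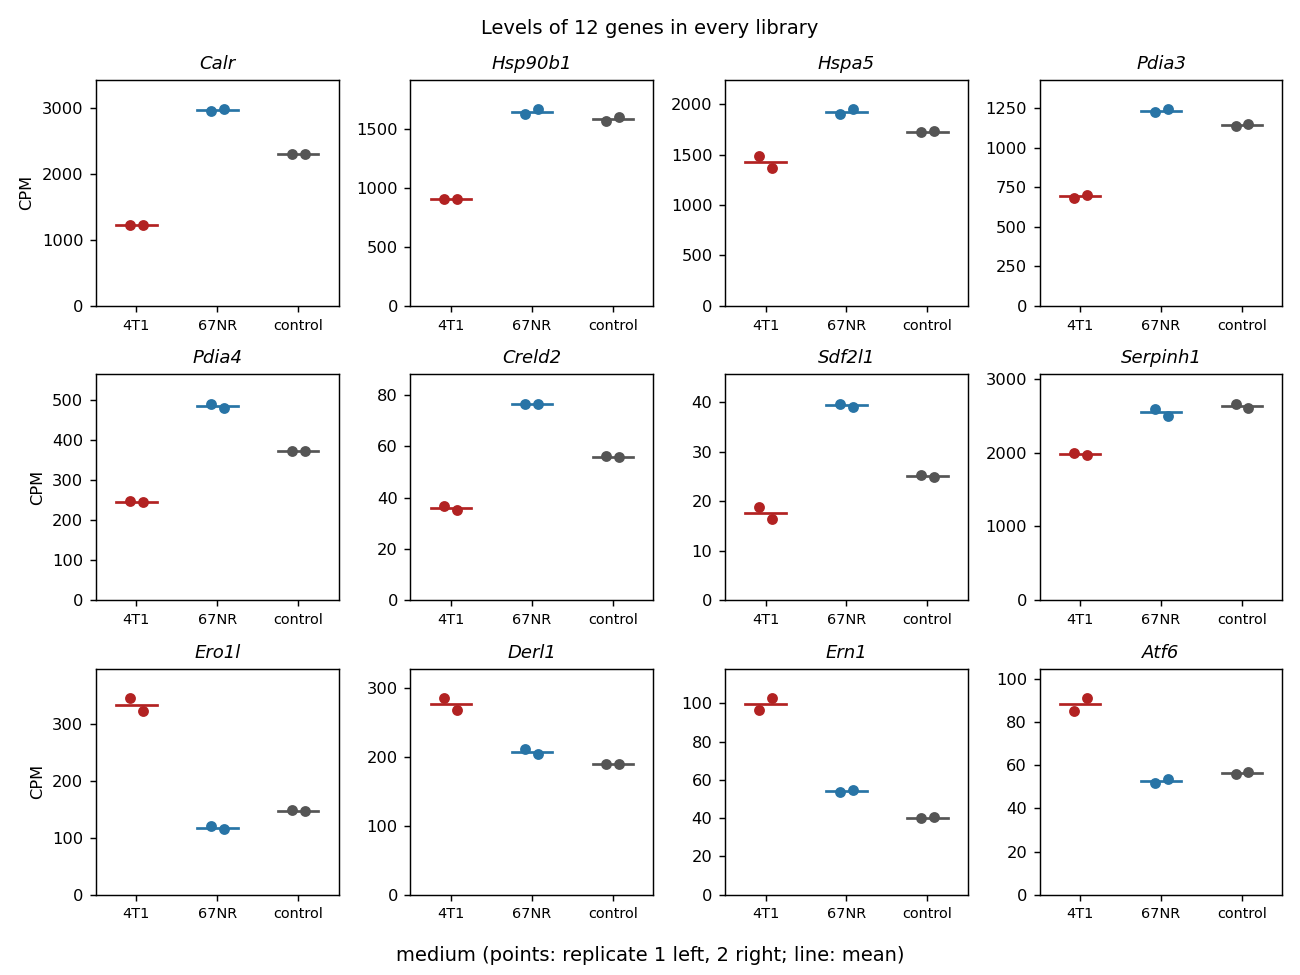
CPM of 12 genes in every library (y axes from 0, points) with the mean of each medium (lines); media run from 4T1 to 67NR to control. In the upper rows 4T1 medium is lowest throughout; in the lowest row, Ero1l, Derl1, Ern1 and Atf6 are highest in 4T1 medium.

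Of the 12 folding enzymes, 8 fell in 4T1 against control medium, 1 rose and 3 did not pass (median log2 -0.36). The shares over all genes were 19.2% lower and 19.9% higher. The protein disulfide isomerases, which form and shuffle disulfide bonds, fell together, with Pdia3 at -0.72 ± 0.06, Pdia6 at -0.64 ± 0.06, Pdia4 at -0.60 ± 0.06, P4hb at -0.47 ± 0.06 and Txndc5 at -0.26 ± 0.06 on the log2 scale. Pdia3, the isomerase that works with Calr and Canx, had 685 and 704 CPM in 4T1 medium, 1227 and 1245 CPM in 67NR medium and 1140 and 1151 CPM in control medium. P4hb, an isomerase that is also a subunit of collagen prolyl hydroxylase, had 1124 and 1157 CPM in 4T1 medium, 1698 and 1647 CPM in 67NR medium and 1611 and 1558 CPM in control medium. In both genes the 4T1 libraries stood well below the other 4.

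Pdia4 and Creld2 passed in all 3 comparisons, as did Calr, Sdf2l1, Dnajc3, Syvn1, Ero1l and Ern1. Libraries of the 3 media also did not overlap in Hyou1 and Hsp90b1, which did not pass in 67NR against control medium. How often this held over all genes was not counted, so a lack of overlap sets no gene apart. Pdia4, an isomerase of the Hspa5 complex, had 247 and 246 CPM in 4T1 medium, 491 and 481 CPM in 67NR medium and 373 and 373 CPM in control medium. Creld2, a secreted ER stress gene with isomerase activity, had 36.6 and 35.4 CPM in 4T1 medium, 76.6 and 76.5 CPM in 67NR medium and 56.4 and 55.7 CPM in control medium. Both rose in 67NR against control medium (log2 0.38 ± 0.06 for Pdia4 and 0.45 ± 0.07 for Creld2) and were about 1 log2 unit lower in 4T1 than in 67NR medium (-0.98 ± 0.06 and -1.09 ± 0.07). Ppib, the ER cyclophilin that acts on collagen prolines, had 85.8 and 82.0 CPM in 4T1 medium, 111 and 114 CPM in 67NR medium and 95.4 and 87.6 CPM in control medium. Its rise in 67NR against control medium (0.29 ± 0.07, adjusted p = 0.00667) was lost without either 67NR library (adjusted p = 0.0508 and 0.0769) or without control replicate 2 (adjusted p = 0.104).

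Ero1l, the oxidase that recharges the isomerases and is known also as a target of hypoxia and of CHOP (chr14:45283087-45318771, minus strand), ran against its group. It had 346 and 323 CPM in 4T1 medium, 121 and 116 CPM in 67NR medium and 150 and 147 CPM in control medium. The 3 media did not overlap. It was 2.25-fold higher in 4T1 than in control medium (log2 1.17 ± 0.06, adjusted p = 1.56e-08) and 2.83-fold higher than in 67NR medium (1.5 ± 0.07, adjusted p = 1.35e-09), and it fell to 79.7% of control in 67NR medium (-0.33 ± 0.07, adjusted p = 0.00243). Its relative Ero1lb was low throughout, with 3.31 and 3.32 CPM in 4T1 medium, 2.87 and 2.24 CPM in 67NR medium and 2.39 and 3.12 CPM in control medium, and passed in no comparison.

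Erp29, an ER protein of the isomerase fold, fell in 4T1 against control medium (-0.47 ± 0.07), and its exons overlap 2210 bases of Naa25 on the other strand, so that reads of the pair may be mixed if strand was not used in counting. Erp44, which retains clients that carry free thiols, fell by less (-0.21 ± 0.07, adjusted p = 0.0229). That call was lost without either control library or either 67NR library (adjusted p = 0.0517 to 0.145), and Txndc5 was lost without control replicate 2 (adjusted p = 0.0544). Dnajc10, a reductase that prepares clients for degradation, did not pass in either comparison with control (-0.09 ± 0.06 in 4T1 medium and -0.11 ± 0.06 in 67NR medium).

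The degradation machinery moved less, with 3 of 7 tested genes lower, 1 higher and 3 not passing in 4T1 against control medium (median log2 -0.11). The 1 rise, 14.3% of the 7, was below the 19.9% higher over all genes, of which 19.2% were lower. Derl1, a channel protein for the export of misfolded proteins (chr15:57869502-57892448, minus strand), had 285 and 269 CPM in 4T1 medium, 212 and 203 CPM in 67NR medium and 189 and 189 CPM in control medium. It was 1.46-fold higher in 4T1 than in control medium (log2 0.55 ± 0.06, adjusted p = 1.70e-05). Its relative Derl2 had 73.5 and 65.3 CPM in 4T1 medium, 72.3 and 75.9 CPM in 67NR medium and 65.0 and 68.4 CPM in control medium, with overlapping libraries of 4T1 and control medium (0.06 ± 0.08).

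Sel1l and Syvn1, the adaptor and the ubiquitin ligase of the main degradation complex, both fell in 4T1 against control medium (-0.42 ± 0.06, adjusted p = 0.000145, and -0.29 ± 0.08, adjusted p = 0.00878). Syvn1 had 59.2 and 64.3 CPM in 4T1 medium, 93.2 and 84.5 CPM in 67NR medium and 75.4 and 76.3 CPM in control medium. Its fall was lost without control replicate 2 (adjusted p = 0.0585), and its rise in 67NR against control medium (0.23 ± 0.07, adjusted p = 0.0368) was lost without any 1 of the 67NR or control libraries (adjusted p = 0.0593 to 0.342). Herpud1, a membrane organiser of that complex, had 131 and 128 CPM in 4T1 medium, 131 and 129 CPM in 67NR medium and 140 and 139 CPM in control medium, and passed in no comparison. Of the mannose-trimming lectins that mark glycoproteins for removal, Edem2 fell in 4T1 against control medium (-0.26 ± 0.08, edgeR adjusted p = 0.0246). That call was lost under the DESeq2 test (adjusted p = 0.06) and without control replicate 1 (log2 -0.17). Edem1 did not pass (-0.04 ± 0.06, edgeR adjusted p = 0.648).

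The membrane sensors Ern1 and Atf6 rose in 4T1 medium, whereas the PERK gene Eif2ak3 fell. Ern1 (chr11:106394650-106487852, minus strand) had 96.6 and 102.7 CPM in 4T1 medium, 53.5 and 54.8 CPM in 67NR medium and 40.1 and 40.5 CPM in control medium. The 3 media did not overlap, and Ern1 was the largest rise of the 37 genes in 4T1 against control medium (2.47-fold, log2 1.31 ± 0.07, adjusted p = 1.54e-08), with a smaller rise in 67NR against control medium (1.34-fold, log2 0.43 ± 0.07, adjusted p = 0.000836). Atf6 (chr1:170704674-170867771, minus strand) had 85.3 and 91.1 CPM in 4T1 medium, 51.7 and 53.5 CPM in 67NR medium and 56.1 and 56.8 CPM in control medium. It rose in 4T1 against control medium (1.56-fold, log2 0.65 ± 0.07, adjusted p = 1.14e-05) and did not pass in 67NR against control medium (-0.10 ± 0.07, adjusted p = 0.332).

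Xbp1, the factor downstream of Ern1, went the other way. It had 111 and 110 CPM in 4T1 medium, 143 and 138 CPM in 67NR medium and 124 and 127 CPM in control medium. The fall in 4T1 against 67NR medium passed (-0.34 ± 0.06, adjusted p = 0.000617). The fall against control medium was small (-0.19 ± 0.06, adjusted p = 0.0342) and was lost without either control library (adjusted p = 0.0992 and 0.168), without either 67NR library (adjusted p = 0.076 and 0.0753), with library totals alone (adjusted p = 0.0705) and under DESeq2 (adjusted p = 0.0642).

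Genes of the translocation channel fell in 4T1 against control medium in 3 of 4 cases, against 19.2% lower over all genes. Sec61b, a subunit of the channel, stood at -0.55 ± 0.08. Ssr1 and Ssr3, subunits of the translocon-associated complex, stood at -0.42 ± 0.06 and -0.35 ± 0.06. Sec61b had 45.6 and 40.4 CPM in 4T1 medium, 55.5 and 57.6 CPM in 67NR medium and 62.4 and 63.2 CPM in control medium. Sec61a1, the pore subunit, did not pass against control in either tumour medium (-0.13 ± 0.07 in 4T1 medium and 0.18 ± 0.07 in 67NR medium) and was lower in 4T1 than in 67NR medium (-0.31 ± 0.07, adjusted p = 0.0018). None of the 4 passed in 67NR against control medium under the main fit. In that comparison 1 of the 4 was higher with size factors of DESeq2, under limma-voom, with the 2 groups alone and with a replicate block.

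The PERK gene Eif2ak3 is not in the list called here the PERK and ATF4 branch, and the part of PERK in it was not tested. That list moved opposite to most folding genes in 4T1 medium. Of its 14 tested genes, 12 rose in 4T1 against control medium and none fell (median log2 0.57), while in 67NR against control medium 1 rose and 5 fell (median -0.06). That 1 rise was not stable: the count was 0 without either 67NR library or without control replicate 2, and 3 without either 4T1 library or with the 2 groups alone. In 4T1 against 67NR medium 13 of 14 were higher (median 0.87). Over all genes, 19.9% were higher and 19.2% lower in 4T1 against control medium. The shares were 13.0% higher and 14.6% lower in 67NR against control medium, and 23.5% higher and 19.9% lower in 4T1 against 67NR medium. Atf4, the factor of the branch, had 701 and 659 CPM in 4T1 medium, 384 and 392 CPM in 67NR medium and 496 and 473 CPM in control medium. The 3 media did not overlap, with a rise in 4T1 (log2 0.49 ± 0.06) and a fall in 67NR (-0.32 ± 0.06), both against control medium. Ddit3, the stress factor CHOP, had 138 and 112 CPM in 4T1 medium, 63.7 and 64.7 CPM in 67NR medium and 56.4 and 55.4 CPM in control medium (log2 1.16 ± 0.09 in 4T1 against control medium). Trib3, a pseudokinase target of both, had 280 and 239 CPM in 4T1 medium, 97.7 and 90.5 CPM in 67NR medium and 110 and 104 CPM in control medium (1.27 ± 0.08). Atf3 and Ppp1r15a, the phosphatase subunit that ends the block of translation, rose in 4T1 against control medium by 1.70 ± 0.12 and 1.26 ± 0.08 on the log2 scale. The genes that fell in 67NR against control medium included Slc7a11 (-0.48), Psat1 (-0.47) and Asns (-0.41), which serve amino acid supply.

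The kinase gene Eif2ak3 itself did not rise with that list. It had 31.6 and 35.0 CPM in 4T1 medium, 55.3 and 52.8 CPM in 67NR medium and 44.6 and 46.2 CPM in control medium. It fell in 4T1 against control medium (-0.45 ± 0.08, adjusted p = 0.000818) and rose in 67NR against control medium (0.25 ± 0.08, adjusted p = 0.0281). It stands in a list of further sensors and proteases, of which 5 of 11 tested rose and 2 fell in 4T1 against control medium, with 3 rises without control replicate 1. In 67NR against control medium 4 rose and 1 fell, but without 1 of the 67NR or control libraries at most 1 rose. Over all genes, 19.9% were higher and 19.2% lower in 4T1 against control medium. In 67NR against control medium 13.0% of all genes were higher and 14.6% lower. Among the rises in 4T1 against control medium were Nfyb (0.72 ± 0.09), Atf6b (0.40 ± 0.08) and the protease gene Mbtps2 (0.35 ± 0.08), whose product cuts ATF6. Nfyb codes for a subunit of NF-Y. Of the other NF-Y genes in the list, Nfya averaged 54.1 CPM in 4T1 medium and 52.0 CPM in control medium. Nfyc averaged 13.5 CPM in 4T1 medium and 16.1 CPM in control medium.

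Of 18 tested further ER folding genes, 11 fell and 2 rose in 4T1 against control medium, a count of falls that was 7 without control replicate 2. The count of rises was 1 under DESeq2, with the 2 groups alone and without any 1 library other than 4T1 replicate 2. In 67NR against control medium 6 rose and none fell, with 2 to 3 rises when a 67NR or control library was left out. Over all genes, 13.0% were higher and 14.6% lower in 67NR against control medium. Pdia5, another isomerase, fell by 0.68 on the log2 scale in 4T1 against control medium, and Fkbp7, a prolyl isomerase, by 0.60. Qsox1, an oxidase that works outside the isomerase system, rose in both tumour media (0.99 in 4T1 and 0.77 in 67NR, both against control medium). Of 15 further degradation genes, 4 fell and 2 rose in 4T1 against control medium, against 19.2% lower and 19.9% higher over all genes, and the ATPase gene Vcp was among the falls (-0.47). The 2 rises became 1 with size factors of DESeq2, under its test, with no filter, with the 2 groups alone, and without either 67NR library or control replicate 2, and 0 without control replicate 1. Of 14 genes of N-glycosylation and glycan trimming, 4 fell and 2 rose, but 1 to 4 fell and at most 2 rose under the other fits. Of 14 further translocation genes, 5 fell and 1 rose, with 3 falls without either control library.

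**Figure D4:**
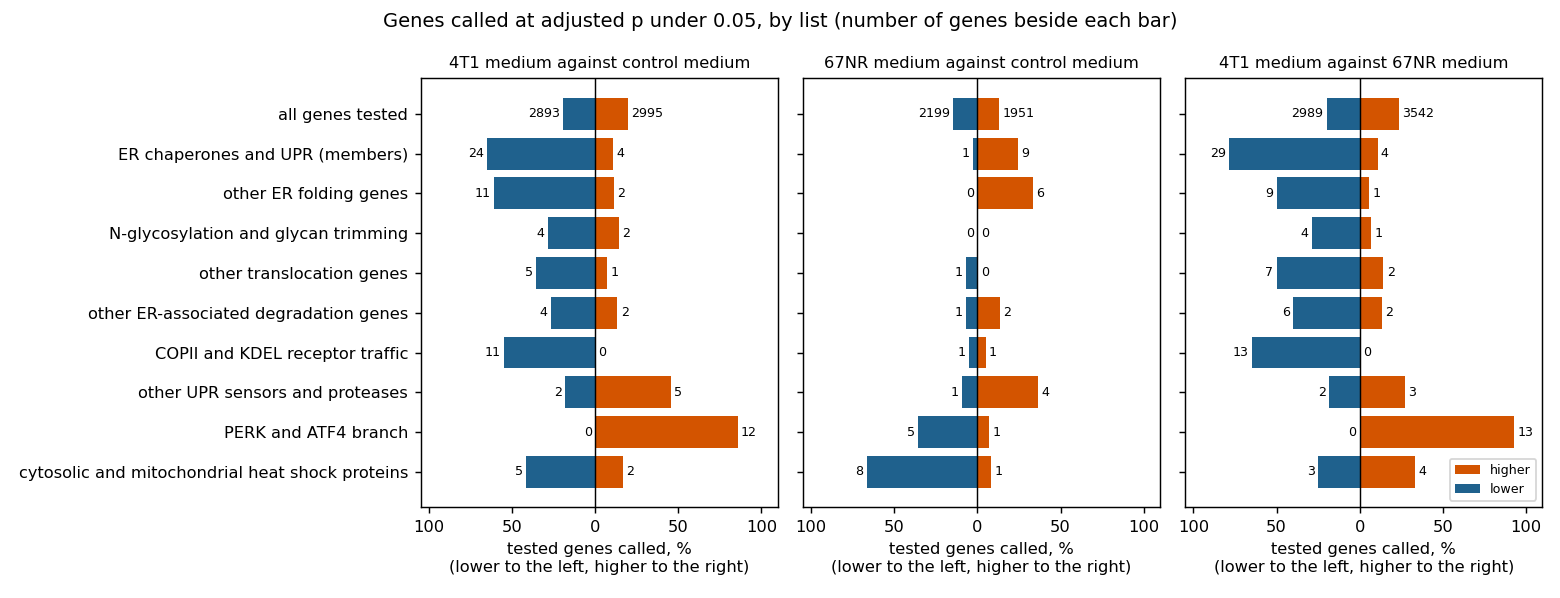
Percentage of tested genes called lower (to the left) and higher (to the right) in each list and over all genes, in the 3 comparisons, with the number of genes beside each bar. In 4T1 medium the members and other ER folding genes extend to the left and the PERK and ATF4 branch to the right.

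Genes with and without the promoter letters both fell in 4T1 medium, and no test was run between them. Of the 11 tested genes with ERSE or ERSE-II letters, 9 fell and none rose in 4T1 against control medium (median log2 -0.40), and of the 20 tested genes with a window and neither element 13 fell and 2 rose (median -0.26). In 67NR against control medium 4 of the 11 rose and none fell (median 0.16), against 5 of the 20 that rose and 1 that fell (median 0.09). In 4T1 against 67NR medium 9 of the 11 fell and none rose (median -0.62), against 16 of the 20 that fell and 2 that rose (median -0.37). Of the tested genes with the letters, Ero1lb and Herpud1 did not pass in 4T1 against control medium, and Pdia3 and Pdia4 fell with neither element in their windows. Over the rest of the genome 27 other genes held the ERSE letters, of which 7 were tested. Of these 7, 2 rose and 1 fell in 4T1 against control medium (median log2 0.12). In 67NR against control medium 4 rose and none fell (median 0.50), and in 4T1 against 67NR medium 1 rose and 1 fell (median -0.20). The calls of Alg12 and Zfp57 in 4T1 against control medium were close to the threshold (edgeR adjusted p = 0.044 and 0.049995). How the calls of these 7 genes hold under the other fits was not examined. Over all genes, 19.9% were higher and 19.2% lower in 4T1 against control medium. The shares were 13.0% and 14.6% in 67NR against control medium, and 23.5% and 19.9% in 4T1 against 67NR medium.

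**Figure D5:**
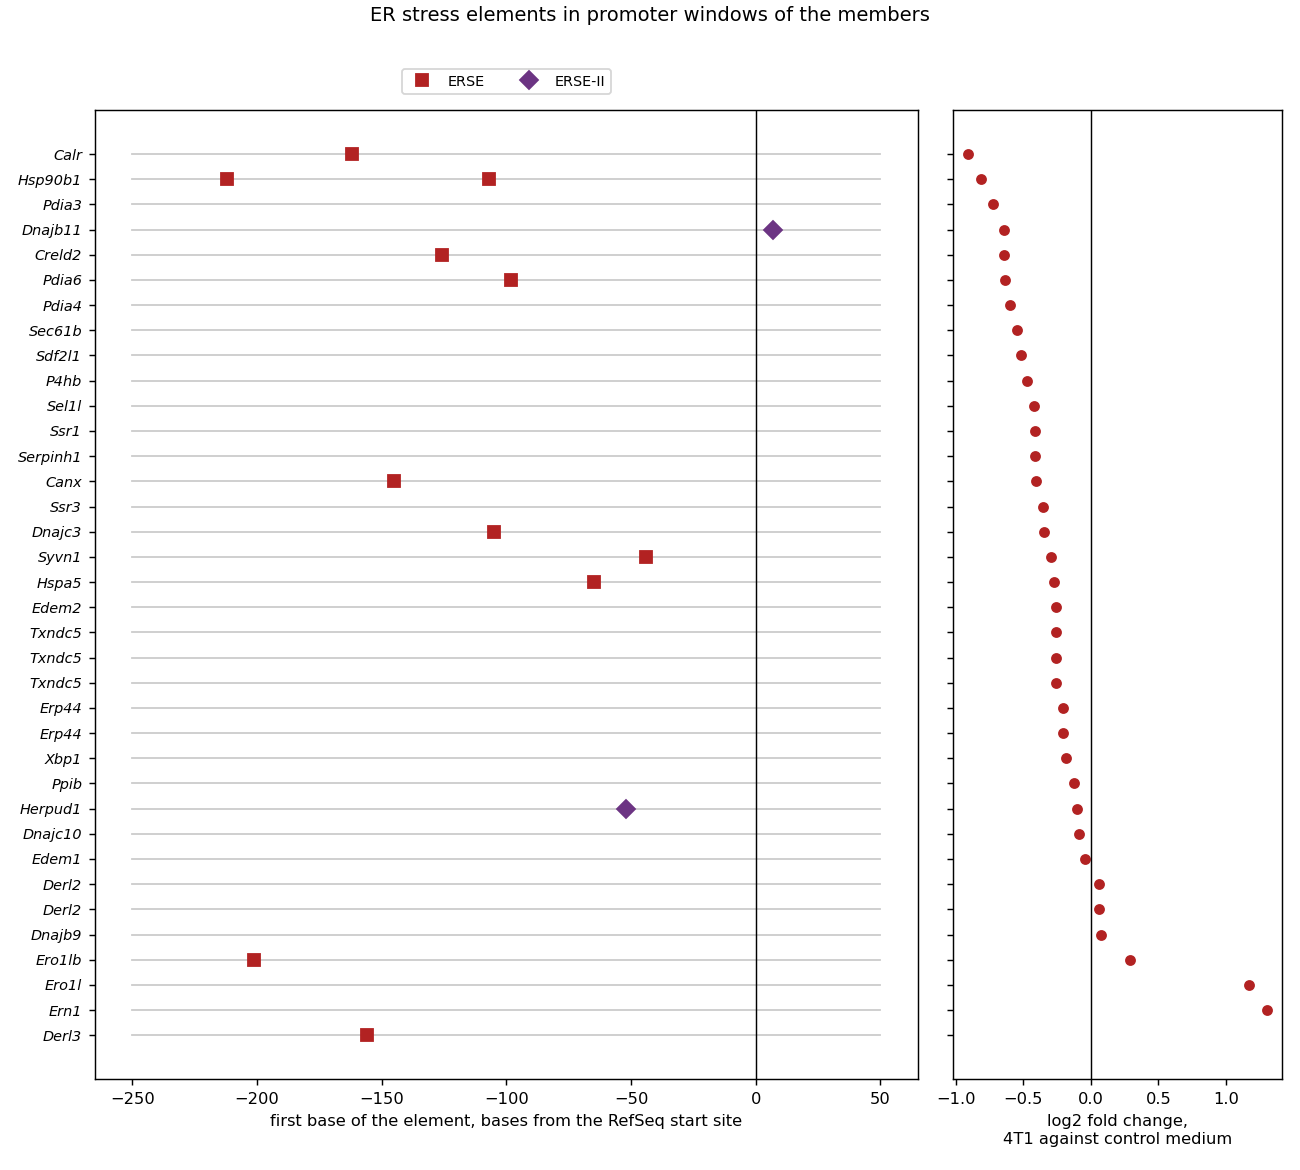
Position of ERSE (squares) and ERSE-II (diamonds) in bases from the RefSeq start site (left, x axis) for each promoter window of the 32 genes, some of which have several, beside the log2 fold change in 4T1 against control medium (right). Genes run from the lowest fold change at the top to the highest, and Derl3, untested, is last; the elements stand both among genes with large falls and near 0.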

How the data were processed

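Poly(A) RNA of the cell line was sequenced from directional libraries on an Illumina NextSeq500, per the labels' protocols. The values the authors deposited are raw counts by gene symbol, in an unfiltered table and in a filtered one that repeats them for 14629 genes. The submitters' processing notes name Subread, mm10 and DESeq2 1.32.0. How reads were aligned, and whether counting used strand, is not stated there. Genes that overlap on opposite strands are therefore uncertain, with the longest overlaps in Erp29 (with Naa25) and Ppib (with Snx22). Shorter ones lie in Hsp90b1, Txndc5, Manf, Derl2, Syvn1, Pdia3, Pdia6, Sec61a1 and Dnajb9, the last 2 with genes at 0 counts.

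The unfiltered counts were reduced by the filterByExpr function of edgeR 4.0.16 to 15055 genes (at a minimum count of 10 and a total of 15) and scaled by TMM. CPM values use these scaled totals. A quasi-likelihood fit of all 6 libraries (3 residual and 9.62 prior degrees of freedom, prior count 0.125, R 4.3.3) gave fold changes and Benjamini-Hochberg adjusted p-values over all genes tested, called at 0.05. The standard error was taken as the size of a log2 fold change over the root of its F value. The code was tested on simulated counts. Gene positions come from GENCODE M21 (GRCm38), promoters from RefSeq (GRCm38.p6), and Ero1l and Ero1lb were matched through their current names. A set of carboxy-terminal retention signals was not analysed here.

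The members, lists and roles were chosen with earlier results of these data known. All 38 members are accounted for. Other genes of the pathway lists are named as the 3 largest changes of their list past the threshold at 10 CPM or more. Atf4, Ddit3, Col1a1 and Mbtps2 against control were chosen after their values were seen. Outside that rule, Nfya and Nfyc are named as the other NF-Y genes, Alg12 and Zfp57 for calls close to the threshold, and marker genes from their lists. The main fit did not pair libraries by replicate number. Over all genes tested, correlations of same-numbered deviations between media were 0.07, 0.01 and -0.04. Mitochondrial genes nevertheless took a larger share of counts in replicate 2 of every medium, and these correlations cannot tell whether part of the genes were paired. The fits were repeated with each library left out, with a replicate block, with only the 2 groups compared, with size factors of DESeq2 or plain library totals, with no filter or the authors' filtered genes, and with DESeq2 1.42.0 or limma-voom (limma 3.58.1) as the test. Precision is limited by 2 libraries per medium.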

Additional observations from a re-analysis of the deposited data

How the results depend on the processing

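Each comparison was refitted under 14 settings, giving 518 values over the 37 tested genes. Direction and side of the threshold were kept in 500 of 518 for 4T1 against control medium, 468 for 67NR against control medium and 503 for 4T1 against 67NR medium, with 16, 11 and 9 calls lost, 0, 32 and 1 gained and 2, 7 and 5 changes of sign. The numbers of genes that passed in 4T1 against control medium stayed at 4 higher and between 20 and 24 lower when a library was left out. In 67NR against control medium they ran from 6 to 18 higher and from 0 to 1 lower, and a fit of these 2 groups alone gave 19 higher. Over all genes, leaving out a library gave 1043 to 2497 higher and 1184 to 2840 lower in 67NR against control medium, and 1891 to 2931 higher in 4T1 against control medium. Changes of sign were confined to genes near 0 that passed in no fit of that comparison. As ranges over the libraries left out, they were Dnajb9 at -0.056 to 0.19 and Derl2 at -0.040 to 0.14 in 4T1 against control medium. In 67NR against control medium they were Txndc5 at -0.0082 to 0.062, Erp29 at -0.020 to 0.030, Ero1lb at -0.29 to 0.099 and Ssr3 at -0.034 to 0.089. In 4T1 against 67NR medium they were Dnajc10 at -0.035 to 0.073 and Herpud1 at -0.029 to 0.0095. With library totals alone, Erp29 stood at -0.0064 in 67NR against control medium and Herpud1 at 0.037 in 4T1 against 67NR medium, and a fit of the 2 groups alone put Dnajc10 at -0.00083 in 4T1 against 67NR medium. The cause of these shifts was not tested. With the replicate number as a block, 4 genes were higher and 24 lower in 4T1 against control medium, 11 higher and 1 lower in 67NR against control medium, and 4 higher and 29 lower in 4T1 against 67NR medium. That block changed only the calls of Manf and Sec61a1, both higher in 67NR against control medium under it. Depth limits Derl3 and Ero1lb, the genes with the fewest counts.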

Other observations

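Genes of transport out of the ER fell in part in 4T1 medium. Of 20 tested genes of COPII vesicles and KDEL receptors, 11 fell and none rose in 4T1 against control medium, and 13 fell and none rose in 4T1 against 67NR medium, while in 67NR against control medium 1 rose and 1 fell. Over all genes, 19.2% were lower in 4T1 than in control medium and 19.9% lower in 4T1 than in 67NR medium. In 67NR against control medium 13.0% of all genes were higher and 14.6% lower. Sec24d, a cargo adaptor of COPII coats, averaged 153 CPM in 4T1 medium, 256 CPM in 67NR medium and 233 CPM in control medium. Kdelr1, a receptor that returns ER residents, averaged 141 CPM in 67NR medium and 117 CPM in control medium and was the 1 rise in 67NR against control medium (log2 0.26, adjusted p = 0.01). No gene of the list rose in that comparison without either 67NR library or without control replicate 2, and none fell without any 1 of the 67NR or control libraries. Summed over the list, these genes took 0.319 and 0.327% of counts in 4T1 medium, 0.396 and 0.387% in 67NR medium and 0.386 and 0.387% in control medium.

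Heat shock proteins of the cytosol and mitochondria followed another order. Of 12 tested, 8 fell and 1 rose in 67NR against control medium, with 4 or 5 falls when a 67NR or control library was left out, and 5 fell and 2 rose in 4T1 against control medium, with 3 falls without either control library. Over all genes, 14.6% were lower and 13.0% higher in 67NR against control medium. In 4T1 against control medium 19.2% of all genes were lower and 19.9% higher. Hspd1, the mitochondrial chaperonin, averaged 341 CPM in 4T1 medium, 170 CPM in 67NR medium and 264 CPM in control medium. Col1a1, a main client of Serpinh1, had 6717 and 7104 CPM in 4T1 medium, 15613 and 14826 CPM in 67NR medium and 14099 and 13536 CPM in control medium. Its part in the values of the ER genes was not tested.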
